A study of Mus musculus with 6 samples.

Results

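Products of the clustered mesenchymal miRNAs miR-199, miR-214, miR-143 and miR-145 were followed in mouse fetal liver by small RNA sequencing. They were chosen by name, as the mature products of the hairpins miR-199a, miR-199b, miR-214, miR-143 and miR-145a, and 9 of the 10 names listed were present among the 1626 miRNAs of the deposited table. The name miR-199b-3p was not found in the table used here. All 9 passed the filter on low counts. The libraries came from C57BL/6J embryos: 3 from wild-type embryos (WT, libraries 1 to 3) and 3 from embryos homozygous for deletion of the miR-144/451 locus (miR-144/451-/-, here KO, libraries 4 to 6). Per the labels, total RNA was taken from a fixed number of fetal liver cells per library. The labels give no embryonic day and do not say how the deletion was made. They also do not say that the replicates were separate embryos, and the spread behind every p-value may then be technical. HITS-CLIP is named in the design text, whereas the labels of the samples give miRNA sequencing, and the values were read as the latter.

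In many tissues miR-199a, miR-199b and miR-214 are products of mesenchymal cells such as fibroblasts, and in liver of the stellate cells that lie along the sinusoids and make matrix when activated. miR-143 and miR-145 are best known from vascular and visceral smooth muscle, where they favour the contractile state of the cell. A miRNA hairpin is cut into a 5p and a 3p arm, one of which is usually loaded into Argonaute and kept, and bases 2 to 8 of the kept arm, the seed, pair with target mRNAs.

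Mature sequences were found for 5 of the 10 listed miRNAs in the RefSeq table (GRCm38.p6). They are shown because they decide which counts can be told apart, with the seed in capitals.
miR-199a-5p: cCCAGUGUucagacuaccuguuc
miR-199a-3p: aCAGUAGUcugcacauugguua
miR-199b-3p: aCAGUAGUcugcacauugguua
miR-214-3p: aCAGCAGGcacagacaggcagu
miR-214-5p: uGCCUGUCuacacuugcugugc

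The miR-199a-3p and miR-199b-3p sequences were identical at all 22 positions, so the counts listed under miR-199a-3p cannot be assigned to one of the hairpins. Counted from 1 at the 5′ end of miR-199a-3p, miR-214-3p differed from it in the seed by U5C and U8G, and the pair had the same base at 8 of 22 positions. Among the RefSeq mature sequences the seed of miR-214-3p was shared with miR-761, which was not found in the table used here. The seeds of miR-199a-5p and miR-214-5p were shared with no other RefSeq mature entry. For miR-199b-5p no mature entry was found, so it was not part of that comparison. The Mir199b hairpin does hold CCAGUGU, the seed of miR-199a-5p, on its 5p side.

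The hairpins are printed next with the RefSeq mature arms in capitals, because miR-199a has separate source genes whose mature products cannot be told apart.
Mir199a-2: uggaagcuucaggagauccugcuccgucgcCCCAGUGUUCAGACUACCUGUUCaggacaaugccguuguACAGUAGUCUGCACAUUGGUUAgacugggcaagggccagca
Mir199a-1: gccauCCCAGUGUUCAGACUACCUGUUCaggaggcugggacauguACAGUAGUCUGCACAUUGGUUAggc
Mir214: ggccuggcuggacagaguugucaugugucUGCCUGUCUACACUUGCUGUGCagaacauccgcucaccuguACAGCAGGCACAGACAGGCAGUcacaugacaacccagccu

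Mir199a-2 (chr1:162217814-162217923, plus strand, GRCm38) and Mir214 (chr1:162223368-162223477, plus strand) lie 5444 bases apart in exons of the noncoding RNA Dnm3os, antisense to an intron of Dnm3, in GENCODE M21. Mir199a-1 (chr9:21496495-21496564, minus strand) is antisense to an intron of Dnm2, and Mir199b (chr2:32318460-32318569, plus strand) to an intron of Dnm1. Dnm1, Dnm2 and Dnm3 encode dynamins, the GTPases that pinch off membrane vesicles. Mir143 and Mir145a lie 1301 bases apart on the minus strand of chromosome 18, and no other gene of GENCODE M21 spans either hairpin.

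The libraries held 16243894 to 27089133 miRNA counts. The deleted locus made up 17.6% to 24.1% of the counts in WT and 0.0214% to 0.0231% in KO, so each library matched its genotype label at that locus. Levels below are TMM-scaled counts per 1000000 (CPM), a scaling that sets the typical miRNA equal between libraries. Markers of the labelled tissue were present in every library: the hepatocyte miRNA miR-122-5p at 29323 to 117800 CPM and the blood cell miRNA miR-142a-3p at 18219 to 29809 CPM. WT library 1 stood apart in some miRNAs of other tissues. The skeletal muscle miRNA miR-206-3p reached 203.8 CPM there and 41.8 CPM in KO library 4, whereas the other 4 libraries held 6.97 to 10.9 CPM. The neural miRNA miR-9-5p reached 424.1 CPM in the same library, against 16.3 to 93.5 CPM elsewhere. The folds of the 9 miRNAs are therefore also given without that library.

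The 9 miRNAs together took 0.244% ± 0.0366 of miRNA counts in WT and 0.276% ± 0.0454 in KO (SD, n = 3 each), of totals that hold the deleted locus in WT. Their summed TMM-scaled level ran the other way, with a WT mean of 2769 ± 441 CPM against a KO mean of 2444 ± 503 CPM (SD over 3 libraries). The share was 0.245% (Wilson 95% interval 0.243 to 0.247), 0.207% (0.205 to 0.209) and 0.280% (0.278 to 0.282) in WT libraries 1 to 3. In KO libraries 4 to 6 it was 0.255% (0.252 to 0.257), 0.245% (0.242 to 0.247) and 0.328% (0.325 to 0.330). These intervals, and the others below, hold counting error alone, because no molecular identifiers mark copies of a molecule. The genotypes overlapped, and KO library 6 held the highest share and WT library 2 the lowest. The cells that made these miRNAs were not identified: the libraries hold RNA of all fetal liver cells taken, and in such bulk samples fewer cells of a type and less RNA per cell cannot be told apart.

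Their mean levels ran from place 77 to place 623 among the 1626 miRNAs. mmu-miR-143-3p was the highest at 1756 CPM on average over the 6 libraries, and mmu-miR-199a-3p followed at 683.6 CPM, place 120. Next came mmu-miR-199a-5p at 81.3 CPM and then mmu-miR-214-3p at 27.8 CPM. Each of these 4 exceeded the next in 6 of 6 libraries, and the ranges of miR-143-3p, miR-199a-3p, miR-199a-5p and miR-214-3p did not overlap.

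Further down, neighbours were closer. mmu-miR-145a-5p (18.6 CPM), mmu-miR-145a-3p (17.5 CPM) and mmu-miR-199b-5p (13.6 CPM) had overlapping ranges, and miR-214-3p also overlapped miR-145a-5p. Within that stretch miR-145a-5p exceeded miR-145a-3p in 5 of 6 libraries and miR-145a-3p exceeded miR-199b-5p in 4. mmu-miR-214-5p (5.49 CPM) and mmu-miR-143-5p (2.17 CPM) stood below all others in every library. Differences in level between miRNAs of different sequence also carry any difference in how well each is captured in a library, which was not tested.

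miR-143-3p, the smooth muscle miRNA that made up 97.7% to 98.2% of the counts of its cluster, had levels of 1742, 1586 and 2219 CPM in the WT libraries, in their order, and of 1318, 1542 and 2131 CPM in the KO libraries. The highest library of each genotype was WT library 3 and KO library 6, and the groups overlapped. Its log2 fold of KO over WT was -0.15 (SE 0.22; edgeR quasi-likelihood test, Benjamini-Hochberg adjusted p = 0.853), and -0.19 without WT library 1. Leaving out KO library 6 or WT library 2 gave -0.38 and -0.32, and leaving out KO library 4 or WT library 3 gave -0.09 and -0.08.

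miR-145a-5p, the guide arm in smooth muscle, stood at 19.8, 14.6 and 23.0 CPM in WT and at 14.4, 13.1 and 26.7 CPM in KO. The groups overlapped, and KO library 6 held the highest value of all. The log2 fold was -0.08 (SE 0.33; edgeR Benjamini-Hochberg adjusted p = 0.997), and -0.06 without WT library 1. Leaving out KO library 6 gave -0.49, WT library 2 -0.32, WT library 3 -0.02, KO library 4 -0.03 and KO library 5 0.06. Counts listed for miR-145b, a separate hairpin on chromosome 18, differed from those of miR-145a-5p by at most 2.39% in any library, and both names are read as 1 signal.

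Its opposite arm miR-145a-3p was at 19.7, 14.0 and 25.6 CPM in WT and at 13.7, 12.8 and 19.1 CPM in KO. KO library 6 lay between WT libraries 1 and 2, and both other KO libraries lay below all WT libraries. With -0.38 on the log2 scale (SE 0.29; edgeR Benjamini-Hochberg adjusted p = 0.647) its fold was the lowest of the 9. Without WT library 1 it was again -0.38, but it was -0.635 when WT library 2 was left out, -0.59 when KO library 6 was and -0.23 when WT library 3 was.

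miR-143-5p, the arm of miR-143 that is mostly discarded, had 34 to 71 counts per library. It was at 1.86, 1.74 and 2.05 CPM in WT and at 2.52, 2.10 and 2.72 CPM in KO. This was the only one of the 9 whose KO values all lay above the WT values, by a gap from 2.05 to 2.10 CPM. Among the 876 miRNAs tested 15.9% did so, and 5.94% had all KO values below WT, as 0 of the 9 had. The log2 fold of 0.38 (SE 0.23; 0.37 without WT library 1) did not pass the test (edgeR Benjamini-Hochberg adjusted p = 0.598).

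miR-199a-3p, whose counts include any from miR-199b-3p, was at 849, 598 and 772 CPM in WT and at 621, 563 and 699 CPM in KO. WT libraries 1 and 3 lay above all KO libraries and WT library 2 below KO libraries 4 and 6. The log2 fold was -0.24 (SE 0.19; edgeR Benjamini-Hochberg adjusted p = 0.647), and -0.13 (SE 0.21) without WT library 1. Without WT library 2 it was -0.43.

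miR-214-3p, encoded beside miR-199a-2, was at 37.9, 25.5 and 29.6 CPM in WT and at 25.9, 18.7 and 29.4 CPM in KO. WT library 1 was the highest, and KO library 5 the lowest. On the log2 scale its fold of -0.33 (SE 0.25; edgeR adjusted p = 0.647) became -0.16 (SE 0.27) without WT library 1, the library with the high muscle and neural miRNAs. With WT library 2 left out it was -0.52, and with KO library 5 left out -0.20. It was -0.46 without KO library 4, where miR-206-3p was also raised (41.8 CPM), and -0.49 without KO library 6. Over the whole muscle list of 6 miRNAs the summed level was 424.5 to 984.3 CPM in WT and 738.9 to 982.2 CPM in KO. Most of it came from miR-499-5p, which was not raised in WT library 1 (552.4 CPM, against 555.4 CPM in WT library 2). Its KO values (725 to 968 CPM) lay above its WT values (409 to 555 CPM), so the sum does not follow miR-206-3p. The log2 fold of miR-499-5p was 0.71 (SE 0.20, edgeR Benjamini-Hochberg adjusted p = 0.234). The cardiac and slow-muscle miRNA miR-208b-3p had 9.13 CPM in WT library 1 and 0 counts in WT libraries 2 and 3 and KO library 5. At 3 counts, a count of 0 in those 3 allows 0.111, 0.131 and 0.182 counts per 1000000 of the library total. The neural list of 3 miRNAs summed to 23.5 to 508.6 CPM in WT and 20.5 to 113.7 CPM in KO. What part these tissues had in the levels of miR-199a-3p and miR-214-3p was not tested.

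miR-199a-5p was at 91.5, 61.6 and 113.4 CPM in WT and at 73.3, 56.1 and 92.2 CPM in KO. WT library 3 was the highest here, unlike for its 3p partner. Its log2 fold was -0.27 (SE 0.29; edgeR Benjamini-Hochberg adjusted p = 0.799), and -0.24 without WT library 1. Omitting WT library 2 gave -0.53, omitting KO library 6 gave -0.465, and omitting either WT library 3 or KO library 5 gave -0.14.

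miR-199b-5p, the 5p arm of the hairpin antisense to Dnm1, was at 13.3, 15.2 and 13.5 CPM in WT and at 10.7, 15.3 and 13.8 CPM in KO. It was the steadiest of the miR-199 products, its highest library exceeding its lowest by 1.42-fold. miR-214-5p was at 4.59, 5.76 and 7.01 CPM in WT and at 6.30, 5.08 and 4.18 CPM in KO. Here WT library 1 and KO library 6 were the lowest of their genotypes, the reverse of miR-214-3p. The log2 folds of miR-199b-5p and miR-214-5p were -0.07 (SE 0.21) and -0.16 (SE 0.26), and -0.11 and -0.30 without WT library 1. Over the libraries left out in turn the former ran from -0.21 (KO library 5) to -0.02 (KO library 4) and the latter from -0.39 (KO library 4) to -0.02 (KO library 6), with -0.05 without WT library 3. For miR-199b-5p it was -0.17 with WT library 3 left out and -0.12 with KO library 6 left out.

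**Figure D1:**
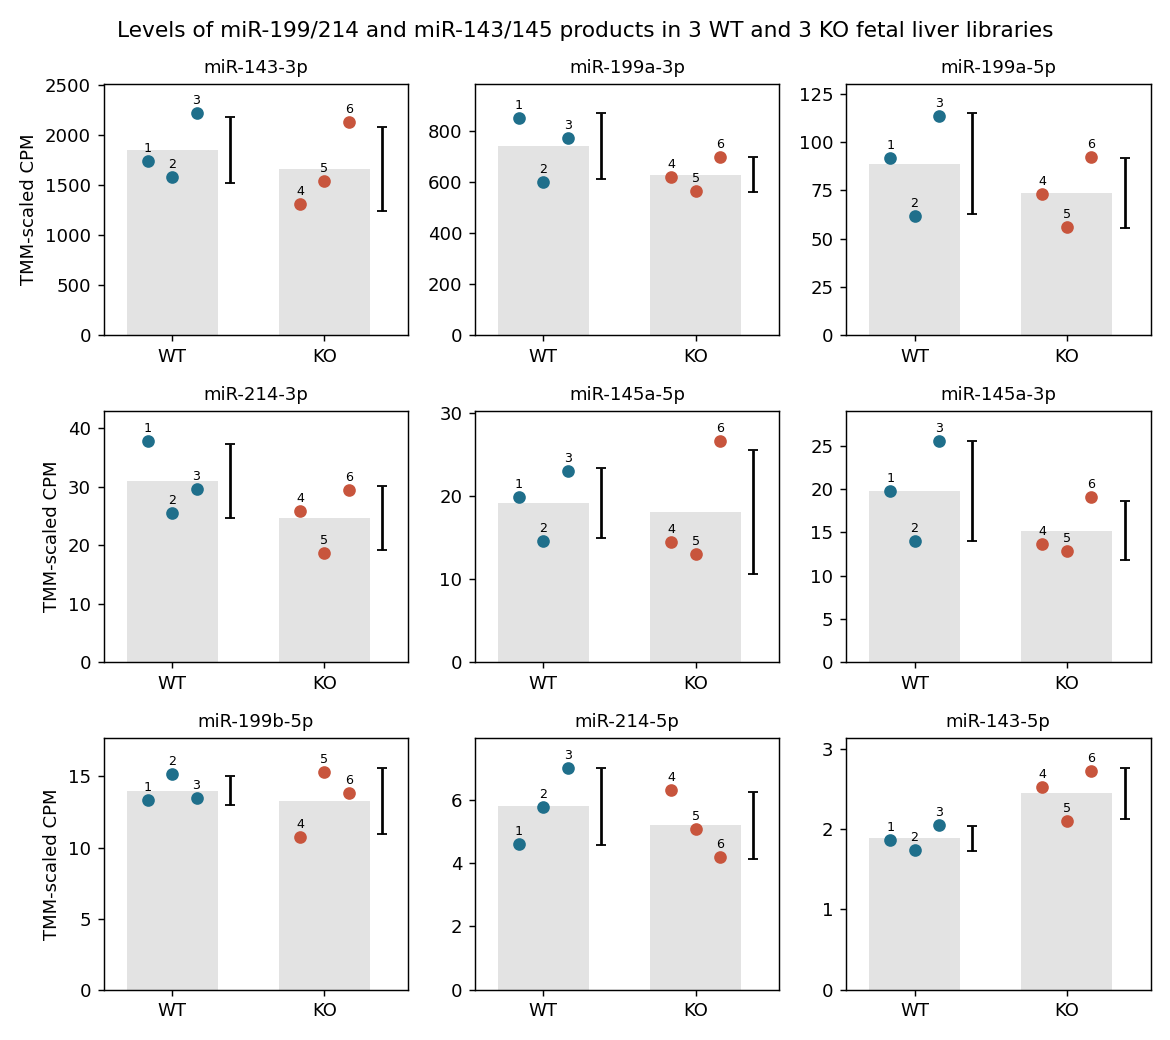
TMM-scaled CPM (linear axes from 0) of the 9 miRNAs in each library, numbered beside the points; grey bars are genotype means and black lines beside them mean ± SD, n = 3 per genotype. WT and KO points overlap in 8 panels, and in the panel of miR-143-5p the KO points begin at 2.10 CPM, above the highest WT point at 2.05 CPM.

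Of the 9 miRNAs 0 passed the test between genotypes, where 0.799% of the 876 tested miRNAs passed (edgeR Benjamini-Hochberg adjusted p under 0.05). At an unadjusted p under 0.05 it was also 0 of 9, against 11.3% of all tested. DESeq2 and limma-voom called 0 of the 9 as well, with 1% and 0.913% of their tested miRNAs called. The smallest edgeR adjusted p among the 9 was 0.598. This does not show that their levels were equal: the standard errors of the folds were 0.19 to 0.33 on the log2 scale. In simulated counts the same test found 40% of changes of 1 on that scale and 95% of changes of 2. Those changes were put only into miRNAs above 10 CPM, and into far more miRNAs than the 7 called here, which eases the adjusted threshold. The share found may thus be lower for the 9, and miR-214-5p (5.49 CPM) and miR-143-5p (2.17 CPM) lay below the simulated levels.

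The side on which the folds fell followed the scaling. With TMM, 8 of the 9 were below 0, with a median of -0.16, while 52.5% of all tested miRNAs were below 0 and the median outside the miR-144/451 locus was -0.01. In counts scaled by the library total alone, 8 of the 9 were above 0, with a median of 0.20, and the median outside the locus was 0.34. Under that scaling miR-143-5p reached 0.74 on the log2 scale (SE 0.25; edgeR Benjamini-Hochberg adjusted p = 0.12), and miR-145a-3p was the only one below 0.

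**Figure D2:**
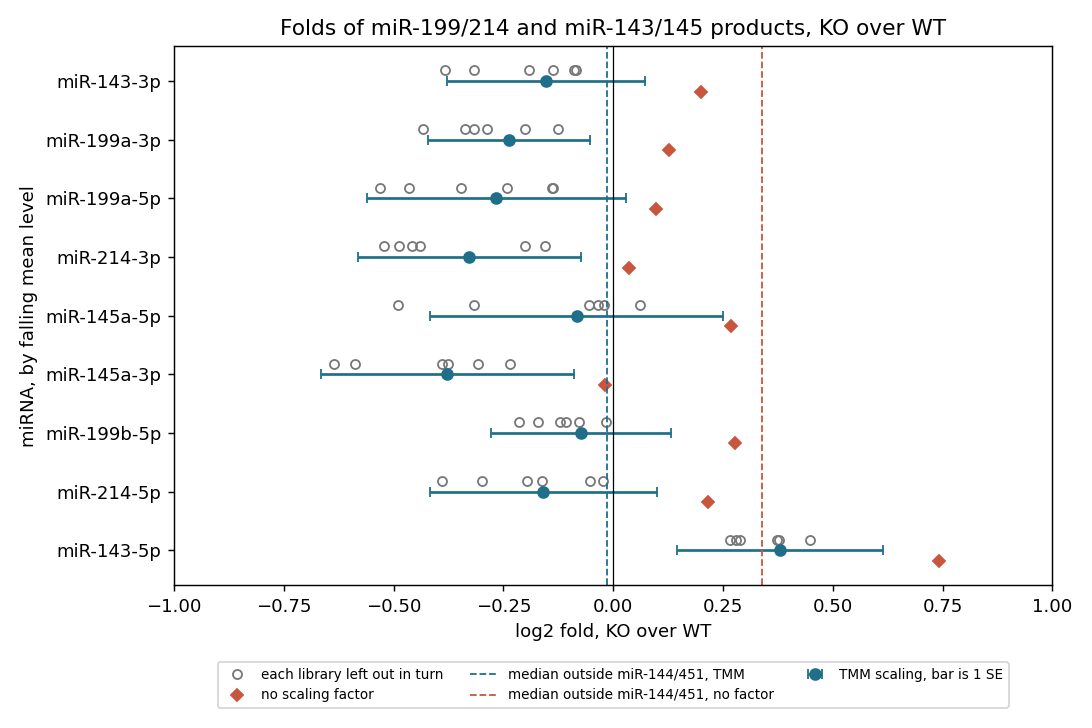
Log2 fold of KO over WT for each of the 9 miRNAs: blue points with 1 SE are TMM-scaled, open circles leave out 1 library each, red diamonds use no scaling factor, and dashed lines are the medians of the tested miRNAs outside miR-144/451 (-0.01 and 0.34). With TMM 8 points lie below 0, from -0.07 to -0.38, and miR-143-5p lies at 0.38.

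The miRNAs differed in which libraries were high. The spread within a genotype, as the SD of log2 levels, was 0.13 for miR-143-5p and 0.45 for miR-145a-5p. These were the lowest and highest of the 9, and the median of all tested miRNAs was 0.32. The value of miR-143-5p rests on 34 to 71 counts per library. The 0.5 CPM added before the log also narrows spread at its low level, so 0.13 does not show steadiness. Relative to the mean of its own log2 level over the 6 libraries, miR-143-3p stood at 0.36 in WT library 3 and 0.30 in KO library 6, and miR-145a-5p at 0.35 and 0.56. Those libraries also had the highest levels of the hepatocyte miRNA miR-122-5p (1.12 and 0.77) and of the endothelial miRNA miR-126a-3p (0.30 and 0.38). The 5 hepatocyte miRNAs summed to 133080 CPM in WT library 3 and 103310 CPM in KO library 6, against 34270 to 56532 CPM in the other 4. Most of these sums was miR-122-5p (117800 and 92264 CPM in the 2 libraries). Of the 5, only miR-802-5p departed, at 44.1 CPM in KO library 6 and 62.0 CPM in KO library 4. The 2 endothelial miRNAs summed to 10523 CPM in WT library 3 and 11046 CPM in KO library 6, against 7323 to 7869 CPM in the other 4. For miR-214-3p and miR-199a-3p WT library 1 was the highest, at 0.47 and 0.33. In KO library 5 the lowest value of each was reached, at -0.53 and -0.27, and miR-199a-5p and both miR-145a arms were lowest there as well. Whether the makeup of the libraries had a part in these profiles was not tested.

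**Figure D3:**
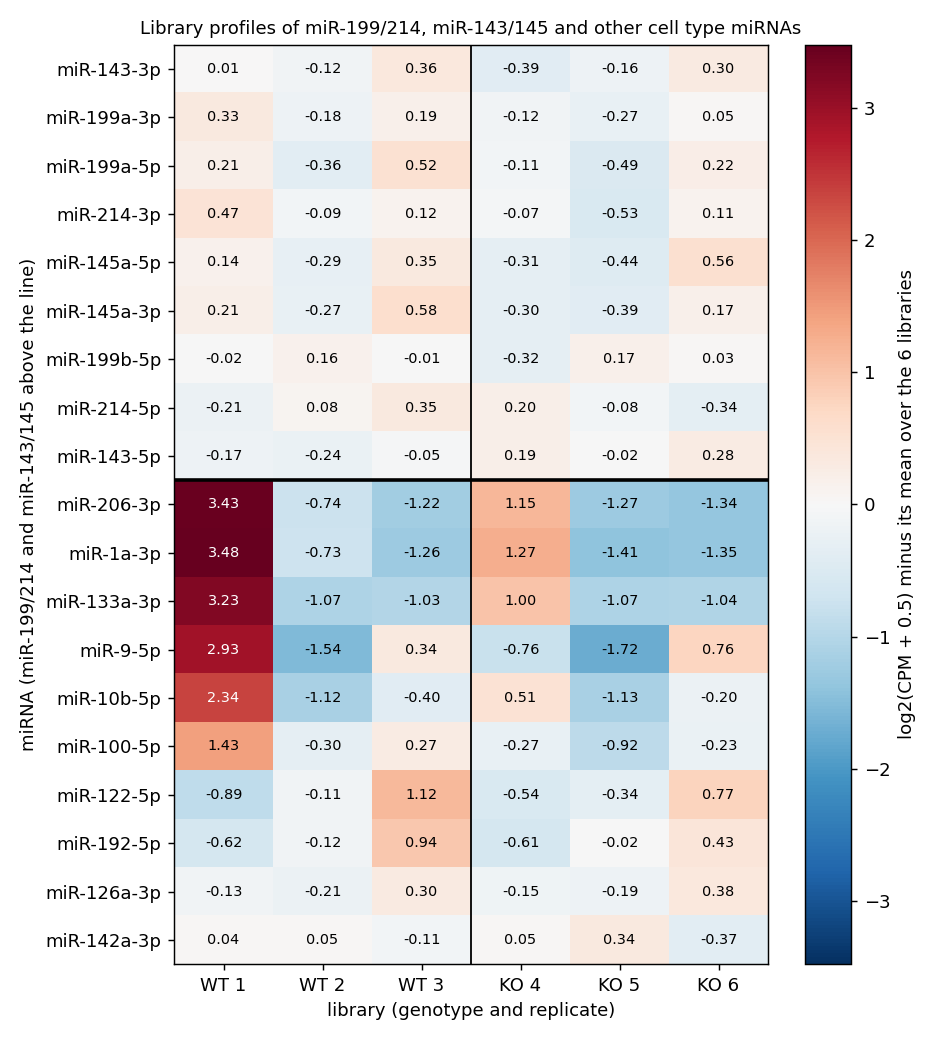
Log2(CPM + 0.5) of each miRNA minus its own mean over the 6 libraries (colour and printed number). Rows above the line are the 9 miRNAs, and rows below it are miRNAs of the other lists, chosen after their values were seen. Of these, miR-10b-5p and miR-100-5p come from the list of other mesenchymal miRNAs described below. miR-206-3p reaches 3.43 in WT library 1, where miR-214-3p reaches 0.47, and miR-122-5p reaches 1.12 in WT library 3, where miR-143-3p reaches 0.36.

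Likeness of profiles was measured as the root mean square difference of these centred log2 levels over the 6 libraries, a description without a test, since the points share depth and scaling. miR-199a-3p and miR-214-3p differed by 0.136, and 1 of the 465 other miRNAs compared was closer to miR-214-3p than miR-199a-3p was, and 4 of 465 closer to miR-199a-3p than miR-214-3p was. miR-143-3p and miR-145a-5p differed by 0.179, with 3 of 465 closer to miR-145a-5p and 13 of 465 closer to miR-143-3p. The nearest to miR-199a-5p was not a product of its own cluster but miR-145a-3p, at 0.101, while miR-214-3p was at 0.228 with 13 of 465 closer. The median difference of the other miRNAs was 0.394 from miR-199a-3p and 0.371 from miR-143-3p.

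Outside the 9, the profiles most like that of miR-143-3p were those of miR-148a-3p (0.113), miR-582-3p (0.118) and miR-126a-3p (0.125). For miR-145a-5p they were miR-145b (0.011), the same signal, then miR-375-3p (0.134) and miR-132-3p (0.170). For miR-199a-3p they were miR-503-3p (0.117), miR-203-3p (0.118) and miR-542-5p (0.121), and for miR-214-3p miR-7033-5p (0.134), miR-690 (0.143) and miR-130b-3p (0.168).

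Arm use set the hairpins apart from each other. In miR-143 the 3p arm was 523 to 1081 times as abundant as the 5p arm. miR-199a also favoured the 3p arm, with the 5p arm at 9.06% to 12.8% of counts, though the 3p counts include any from miR-199b. In miR-145a the arms were near even, with the 5p arm at 47.4% to 51.4% in 5 libraries and at 58.3% (exact Clopper-Pearson 95% interval 55.4 to 61.1) in KO library 6.

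The log2 ratio of 5p to 3p varied most between libraries of a genotype in miR-214, with an SD of 0.54 in WT and 0.50 in KO (n = 3 each). Its 5p share was 10.8% (8.72 to 13.2), 18.4% (15.7 to 21.4) and 19.2% (16.4 to 22.2) in WT libraries 1 to 3 and 19.6% (16.6 to 22.9), 21.4% (17.6 to 25.6) and 12.4% (10.3 to 14.8) in KO libraries 4 to 6. WT library 1 and KO library 6 lay below the other 4, 1 library of each genotype.

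Between genotypes 0 of the 4 hairpin ratios tested passed (limma trend on log2 of 5p over 3p, Benjamini-Hochberg adjusted over 263 hairpins), where 0% of all hairpins passed. At an unadjusted p under 0.05 there was 1 of the 4, miR-143, and 5.7% of all. Its log2 ratio was -9.89 ± 0.13 in WT and -9.36 ± 0.32 in KO (SD, n = 3 each), a difference of 0.53 (SE 0.21; limma adjusted p = 0.66). The 5p arm rests on 34 to 71 counts per library. The differences of miR-145a, miR-199a and miR-214 were 0.22 (SE 0.25), -0.02 (SE 0.21) and 0.18 (SE 0.35). Without WT library 1 the 4 differences were 0.56 (miR-143), 0.24 (miR-145a), -0.09 (miR-199a) and -0.13 (miR-214), so that of miR-214 turned. That of miR-143 was 0.35 without KO library 4, and that of miR-145a was 0.08 without KO library 6.

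**Figure D4:**
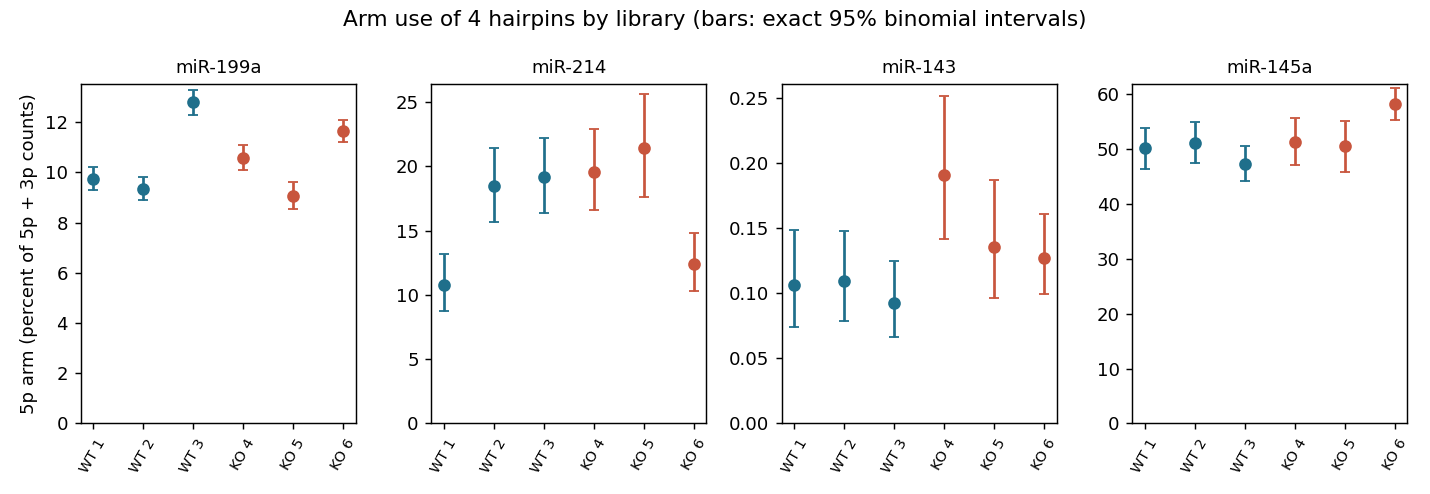
Share of the 5p arm in the 5p and 3p counts of 4 hairpins (percent, axes from 0) in each library, WT blue and KO red, with exact 95% binomial intervals. miR-214 falls to 10.8% in WT library 1 and 12.4% in KO library 6 and stands at 18.4% to 21.4% in the other 4, and miR-145a rises to 58.3% in KO library 6.

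Ratios between products of different hairpins were compared with exact two-sided permutation tests over 20 assignments, whose smallest possible p is 0.1, adjusted over the 3 ratios. miR-143-3p exceeded its neighbour miR-145a-5p by 87.8, 108.5 and 96.4-fold in WT and by 91.4, 117.8 and 79.9-fold in KO, and the log2 ratio differed by -0.03 (exact permutation p = 0.9, adjusted p = 0.9). miR-199a-5p exceeded miR-214-3p by 2.42, 2.42 and 3.83-fold in WT and by 2.83, 3.00 and 3.13-fold in KO, a log2 difference of 0.08 (exact permutation p = 0.8, adjusted p = 0.9). miR-199b-5p stood at 0.146, 0.246 and 0.119 of the level of miR-199a-5p in WT and at 0.147, 0.273 and 0.150 in KO, a log2 difference of 0.17 (exact permutation p = 0.5, adjusted p = 0.9). WT library 2 and KO library 5 had the highest miR-199b-5p ratios, so this ratio too varied more between libraries than between genotypes.

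Among 20 other miRNAs listed as expressed in fibroblasts, stroma, smooth muscle or cartilage, 0 rose and 0 fell in the test over all miRNAs. By edgeR 0.457% of all tested rose and 0.342% fell. Of the 20, DESeq2 and limma-voom also called 0. At an unadjusted p under 0.05 it was also 0 of 20 with edgeR, where 11.3% of all tested passed, and 0 with limma-voom. That count was 2 with DESeq2, RLE scaling, the locus removed before scaling, no filter, or without WT library 3 or KO library 6, and 4 without WT library 2. It was 1 with no scaling factor. In TMM-scaled values 19 were below 0 and 1 above, with a median log2 fold of -0.27, whereas with no scaling factor 7 were below and 13 above, with a median of 0.09. Without WT library 1 17 were below and 3 above, with a median of -0.36, and without KO library 6 the median was -0.45. The list holds miR-145b, the same signal as miR-145a-5p. Both arms of miR-140, miR-322 and miR-455 are also in it, so its 20 miRNAs are not 20 separate signals. In WT library 3 and KO library 6, miR-379-5p (12261 and 10219 CPM) and miR-127-3p (8616 and 6312 CPM) were highest, as was the hepatocyte miRNA miR-122-5p. Which cells made the listed miRNAs was not tested. The most abundant, miR-379-5p and miR-127-3p of the imprinted Dlk1-Dio3 cluster and the cartilage miRNA miR-140-3p, had log2 folds of -0.10 (SE 0.47), -0.36 (SE 0.35) and -0.20 (SE 0.15), and of -0.405, -0.54 and -0.18 without WT library 1. The lowest was miR-10b-5p of the HoxD cluster at -1.20 (SE 0.92), whose level was 332.2 CPM for WT library 1, against 29.6 to 92.9 CPM elsewhere. Without WT library 1 the fold of miR-10b-5p turned to 0.595 (SE 0.49). The highest was miR-503-5p at 0.19 (SE 0.15), and 0.27 without WT library 1. The genotypes did not overlap, with KO higher, for 0 of the 20, against 15.9% of all tested, and with KO lower for 2, against 5.94%. The lower ones were miR-140-5p and miR-195a-5p, named after their values were seen.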

How the data were processed

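Small RNA of 6 mouse fetal liver libraries (3 WT, 3 KO) was counted per mature miRNA. Per the file headers, the authors deposited raw counts for each library and, derived from them, a percent of the library's total count; each deposited percent equalled count over total times 100, with a largest deviation of 5e-09. Cutadapt, an adapter trimmer, stands in the submitters' processing notes; for the aligner, annotation release, build and reads matching several miRNAs, the step is not given in the sources used here. Counts were tested over the whole table with edgeR 4.0.16 in R 4.3.3 (TMM, filterByExpr, quasi-likelihood F-test, Benjamini-Hochberg); 876 miRNAs were tested and 750 left out. Standard errors are the absolute log2 fold over the square root of F. Arm ratios were tested with limma 3.58.1 (pseudocount 1, mean of at least 10 counts per arm). DESeq2 1.42.0 and limma-voom, other scalings, no filter, near-identical miRNAs collapsed and each library left out were alternatives. The edgeR and arm tests were tested on simulated data (843 miRNAs, 262 hairpins).

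The miRNAs named were the listed ones, the 3 outside them (at least 10 CPM) with the profile nearest to each of miR-199a-3p, miR-214-3p, miR-143-3p and miR-145a-5p, those sharing a seed, and the extremes and the 3 most abundant of the list of 20 mesenchymal miRNAs. Other miRNAs named (tissue markers, and miRNAs whose genotypes did not overlap) fall outside that rule; the markers come from the marker lists, and some were picked after their values were seen. Members, lists and rules were chosen with earlier results of these data known. The other marker lists summed, over the 6 libraries, to 36484 to 54799 CPM (blood cells), 49922 to 355310 CPM (erythroid) and 625.8 to 1392 CPM (epithelial). Except for miR-486a-5p, the erythroid list holds only products of the deleted locus, so its sum cannot compare erythroid content between genotypes. That sum was 272390 to 355310 CPM in WT and 49922 to 69966 CPM in KO. For miR-486a-5p the levels overlapped, at 43832 to 82223 CPM in WT and 49709 to 69770 CPM in KO.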

Additional observations from a re-analysis of the deposited data

How the results depend on the processing

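No paired analysis was possible because the replicate numbers (1 to 3 in WT, 4 to 6 in KO) are not shared between the genotypes. The count of 0 called miRNAs of the 9, and of 0 called arm ratios, was 0 under every alternative run for it, and also without each library in turn (0 to 0). With no scaling factor the direction turned for 7 miRNAs, with log2 folds of 0.13 (miR-199a-3p), 0.10 (miR-199a-5p), 0.28 (miR-199b-5p), 0.037 (miR-214-3p), 0.215 (miR-214-5p), 0.20 (miR-143-3p) and 0.27 (miR-145a-5p), beside a median of 0.34 over all tested miRNAs but those of the deleted locus. With upper-quartile scaling 2 turned, miR-199b-5p (0.025) and miR-145a-5p (0.013). With each library left out in turn, miR-145a-5p ranged from -0.49 to 0.06, above 0 only without KO library 5; the arm ratio difference of miR-214 ranged from -0.13 to 0.46 and that of miR-199a from -0.12 to 0.14. The log2 ratio difference of miR-143-3p to miR-145a-5p ranged from -0.19 to 0.094, that of miR-199a-5p to miR-214-3p from -0.028 to 0.30 and that of miR-199b-5p to miR-199a-5p from -0.13 to 0.47. Why these turned was not tested. None of the other 177 values recomputed changed direction or call. miR-143-5p rests on 34 to 71 counts per library, the fewest of the 9.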
